A study of Mus musculus with 9 samples.

Results

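The early response of mouse myeloid precursors (MPs) to RANKL was examined as 1 comparison, of 3 exon arrays of MPs given CSF-1 and RANKL for 1.5 days with 3 arrays of MPs given CSF-1 alone. Its members were the 14860 genes that the platform annotation tied to a single gene symbol, out of 23332 transcript clusters, the groups of probes that each stand for about 1 gene. Where a symbol had several clusters, the one with the highest mean signal was taken. The comparison used 6 of the 9 arrays of the series, and the other 3, MPs given CSF-1 and RANKL for 3 days, entered the shared estimate of the spread and a closing look at the time course. All cells came from unmodified bone marrow of strain C57Black6, expanded on plastic for 3 days with CSF-1, which keeps macrophages and their precursors alive and dividing, at 100 ng/ml per the labels, and then moved to a commercial osteoclast medium. How long the CSF-1 alone cells stayed in that medium is not labelled, and a difference due to RANKL cannot be told apart from 1 due to culture time. It is not labelled either whether arrays of 1 group represent different animals or dishes. The p-values cover the scatter among these arrays only, and this may be technical. In such bulk cultures, fewer cells of a type and less RNA per cell cannot be told apart.

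RANKL is the cytokine that turns macrophage-lineage precursors into osteoclasts (OCs), the multinucleated cells that resorb bone. Its receptor RANK carries no enzyme of its own and recruits TRAF adaptors and ubiquitin ligases, which release NF-kB from its inhibitors and, in a slower branch, lead to processing of the precursor protein that Nfkb2 encodes. NF-kB and AP-1 transcription factors (TFs) then induce NFATc1, which switches on the genes of cell fusion and bone resorption.

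NF-kB also binds the promoters of several genes of its own pathway, and promoters of 2 such genes that rose at 1.5 days are shown for this reason. They are RefSeq sequences of GRCm38.p6, 5′ to 3′ along the gene's strand, with 250 bases before and 50 after an annotated start. Capitals mark each match to an NF-kB motif, searched on both strands as GGGNNTTTCC, GGGNNTTCCC, GGGNNTCTCC or GGGNNTCCCC. The promoter shown for Nfkb2 is on the plus strand at chr19:46304487-46304786 and that of Traf2 on the minus strand at chr2:25546891-25547190. Nfkb2 has other annotated starts, whose windows at chr19:46305445-46305744 and chr19:46305680-46305979 are not shown. Each of these held 1 match, GGGACTTTCC.
Nfkb2: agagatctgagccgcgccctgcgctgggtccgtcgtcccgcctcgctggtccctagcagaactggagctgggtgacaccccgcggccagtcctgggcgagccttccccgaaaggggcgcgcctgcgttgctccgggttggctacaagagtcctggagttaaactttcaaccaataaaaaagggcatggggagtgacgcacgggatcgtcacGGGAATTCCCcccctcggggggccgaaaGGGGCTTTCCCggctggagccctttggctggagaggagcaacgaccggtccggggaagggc
Traf2: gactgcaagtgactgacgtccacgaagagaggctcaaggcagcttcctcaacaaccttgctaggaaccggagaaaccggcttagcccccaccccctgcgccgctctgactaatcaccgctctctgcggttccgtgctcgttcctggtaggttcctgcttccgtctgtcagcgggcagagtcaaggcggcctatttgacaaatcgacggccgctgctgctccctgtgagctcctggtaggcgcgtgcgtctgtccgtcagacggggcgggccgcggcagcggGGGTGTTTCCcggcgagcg
In Nfkb2 the first capital run starts at position -39 from the start and reads the same on both strands, and the second holds overlapping matches at -11 and -10. The match in Traf2 starts at position 31 after the start. The other called genes of the RANK and NF-kB lists, Birc3, Nfkbie and Traf1, had no such letters in this window. Of the 62 genes called at 1.5 days 47 had a promoter in the table, and 6 of these held a match (12.8%), against 8.38% of 11894 array genes. The others were Slc6a12, Casp4, Cd55 and Bcl2l1. A match is a description of letters, not of binding.

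The arrays were alike in overall signal. Signal is given on the log2 scale after RMA, which sets all arrays to nearly one distribution, so that a change of most genes in the same direction would not show. Array medians lay between 5.02 and 5.22 over the series. The macrophage markers Csf1r and Adgre1 were high in both groups. Of the 23 measured macrophage and monocyte genes, given further below, 20 had a change below 0. The CSF-1 receptor gene Csf1r read 11.61, 11.50 and 11.48 at 1.5 days, against 11.60, 11.86 and 11.85 in CSF-1 alone. The macrophage surface gene Adgre1 read 11.32, 11.24 and 11.08 against 11.07, 11.39 and 11.32. Markers of other cell types passed the test in no list, with 0 of 21 for granulocytes and mast cells, 0 of 13 for dendritic cells and MHC class II, 0 of 15 for lymphoid cells, 0 of 11 for erythroid cells and megakaryocytes and 0 of 19 for stroma and osteoblasts. Their median changes ran from -0.03 to 0.05. The mean signal of the granulocyte and mast cell list was 3.45 to 3.58 at 1.5 days and 3.53 to 3.70 in CSF-1 alone. It was 5.25 to 5.37 and 5.20 to 5.30 for the dendritic cell list, 3.75 to 3.81 and 3.84 to 3.87 for the lymphoid list, 4.35 to 4.42 and 4.35 to 4.40 for the erythroid list and 3.50 to 3.55 and 3.50 to 3.54 for the stromal list, in the same order.

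To determine which genes answered RANKL early, a limma fit over all 9 arrays was used. Of 14860 genes, 62 passed at a Benjamini-Hochberg adjusted p under 0.05 (0.417%), of which 47 were higher (0.316%) and 15 lower (0.101%) at 1.5 days. A change of at least 2-fold was seen for 19 of the higher and 2 of the lower genes. In all 62 the 3 arrays of the groups did not overlap, as was the case in 14.7% of all genes, 1283 higher and 899 lower. The median log2 change over all genes was 0.01, with quartiles at -0.07 and 0.09. Most calls were lost when 1 array was left out. Dropping RANKL 1.5 days replicate 2 or 3 left 3 and 4 calls, each already in the set of 62, and dropping its replicate 1 gave 139, with 47 of the 62. Dropping replicate 1, 2 or 3 of the CSF-1 alone group gave 28, 4 and 2, with 17, 4 and 2 of the 62. Leaving out replicate 1, 2 or 3 of the 3 days arrays, which enter only through the spread, gave 86, 19 and 12. Nfkb2 and Zmiz2 alone kept their calls with any 1 of the 6 arrays left out (limma adjusted p of 0.00181 or less), and Rrad kept its call in 5 of 6 fits.

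**Figure D1:**
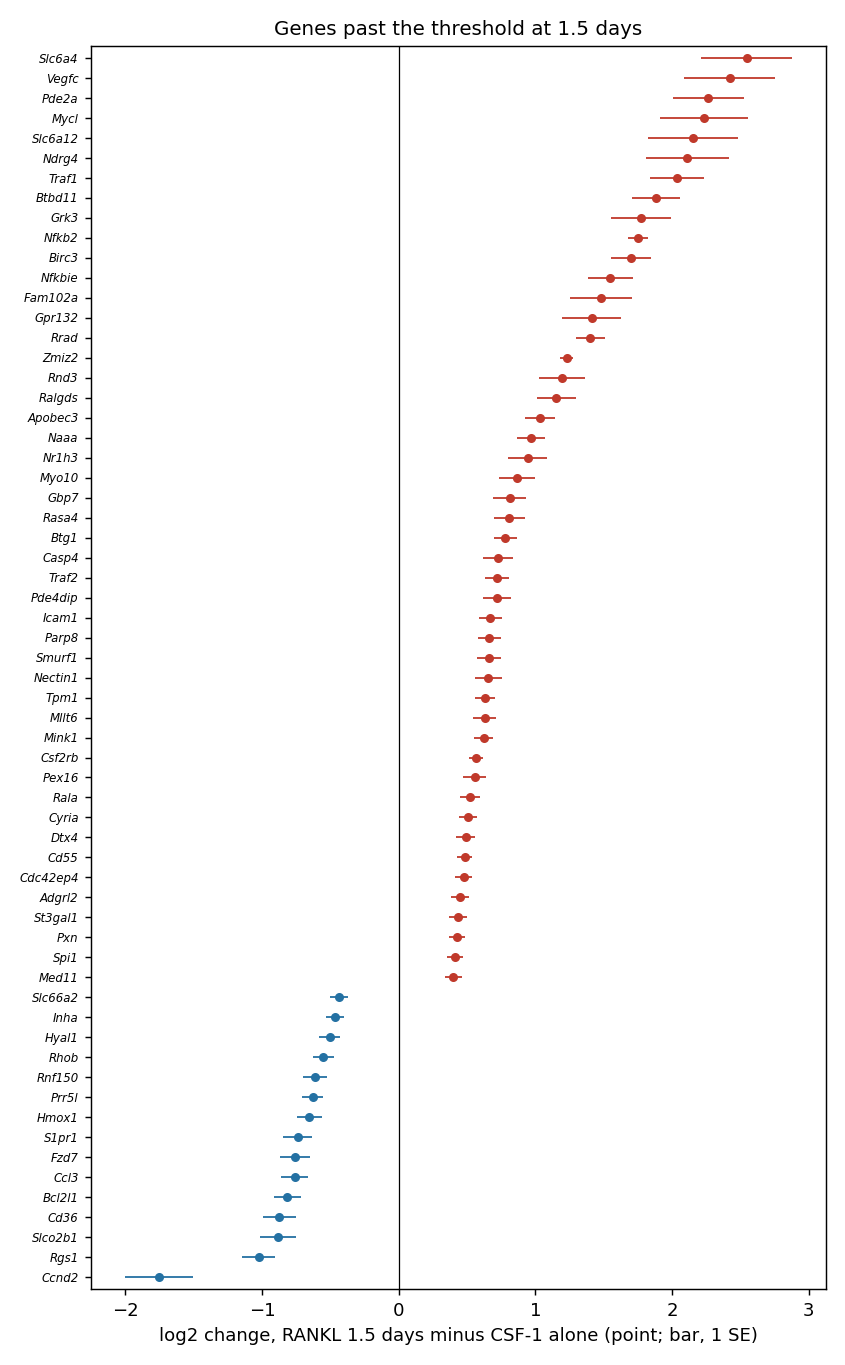
Log2 change of the 62 genes that passed, RANKL 1.5 days minus CSF-1 alone, with points for the estimate and bars for 1 standard error (SE), red for the 47 higher and blue for the 15 lower genes. The largest rises, from Slc6a4 at 2.55 downward, have wide bars, whereas Nfkb2 at 1.75 and Zmiz2 at 1.23 have SEs of 0.07 and 0.05.

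Genes close to the receptor were among the rises. Of the list of the RANK receptor, its adaptors and ligases, 3 of 14 measured members rose and none fell (median change 0.03). Traf1, an adaptor that pairs with Traf2, read 7.91, 8.28 and 8.41 at 1.5 days, against 5.78, 6.40 and 6.31 in CSF-1 alone. The lowest array of 1.5 days thus lay well above the highest of CSF-1 alone, and replicate 1 was the lowest in each group. The change was 2.04 (SE 0.20, limma adjusted p = 0.0164). Birc3, a ubiquitin ligase that works with the TRAFs, read 7.62, 7.93 and 8.04 against 6.02, 6.39 and 6.08. Its groups did not overlap either, and it changed by 1.70 (SE 0.15, limma adjusted p = 0.0128). Traf2, the adaptor that brings Birc3 to the receptor, read 8.18, 8.29 and 8.42 against 7.48, 7.67 and 7.58, a rise of 0.72 (SE 0.08, limma adjusted p = 0.0305). The receptor gene Tnfrsf11a did not pass, at 0.39 (limma adjusted p = 0.528), nor did the adaptor Traf6 at -0.13 (limma adjusted p = 0.614). Traf1 and Birc3 lost their calls without RANKL 1.5 days replicate 2 (limma adjusted p of 0.137 and 0.0908), without RANKL 1.5 days replicate 3 (0.127 and 0.0772) or without CSF-1 alone replicate 3 (0.0844 for both). Traf1 did so without CSF-1 alone replicate 2 too (0.0750), and Traf2 without any 1 of the 6 compared arrays other than RANKL 1.5 days replicate 1, at values up to 0.165, or without RANKL 3 days replicate 2 or 3 (0.0603 and 0.0601).

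Of the NF-kB subunits, inhibitors and kinases, 2 of 15 measured members rose and none fell (median change 0.15). The change was above 0 in 13 of them, and in 51.7% of all genes. Nfkb2, the subunit gene of the slower branch whose promoter is shown above, read 8.87, 8.78 and 8.74 at 1.5 days, against 7.01, 7.06 and 7.06 in CSF-1 alone. The arrays within a group lay closer together than for the other members of the pathway that rose. Replicate 1 was the highest at 1.5 days and, by little, the lowest in CSF-1 alone. The rise was 1.75, or 3.37-fold (SE 0.07, limma adjusted p = 8.15e-05). Nfkbie, which encodes an inhibitor that holds NF-kB in the cytoplasm, read 7.74, 7.82 and 7.99 against 6.12, 6.29 and 6.49. Its groups did not overlap, and it rose by 1.55 (SE 0.17, limma adjusted p = 0.0237). That call was lost when any 1 of the 6 compared arrays other than RANKL 1.5 days replicate 1 was left out, at limma adjusted p-values up to 0.156. The inhibitor Nfkbia read 9.53, 9.83 and 9.89 against 8.14, 8.92 and 8.89, with replicate 1 lowest in both groups. Its change of 1.10 did not pass (SE 0.25, limma adjusted p = 0.179), nor did that of the coactivator Bcl3 at 0.67 (0.0703). Nfkb1, Relb and Chuk could not be measured with a single symbol. With the array set, replicate 1 against replicates 2 and 3, as a term, 4 members passed, Nfkbia and Bcl3 in addition (limma adjusted p of 0.0103 and 0.0174).

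**Figure D2:**
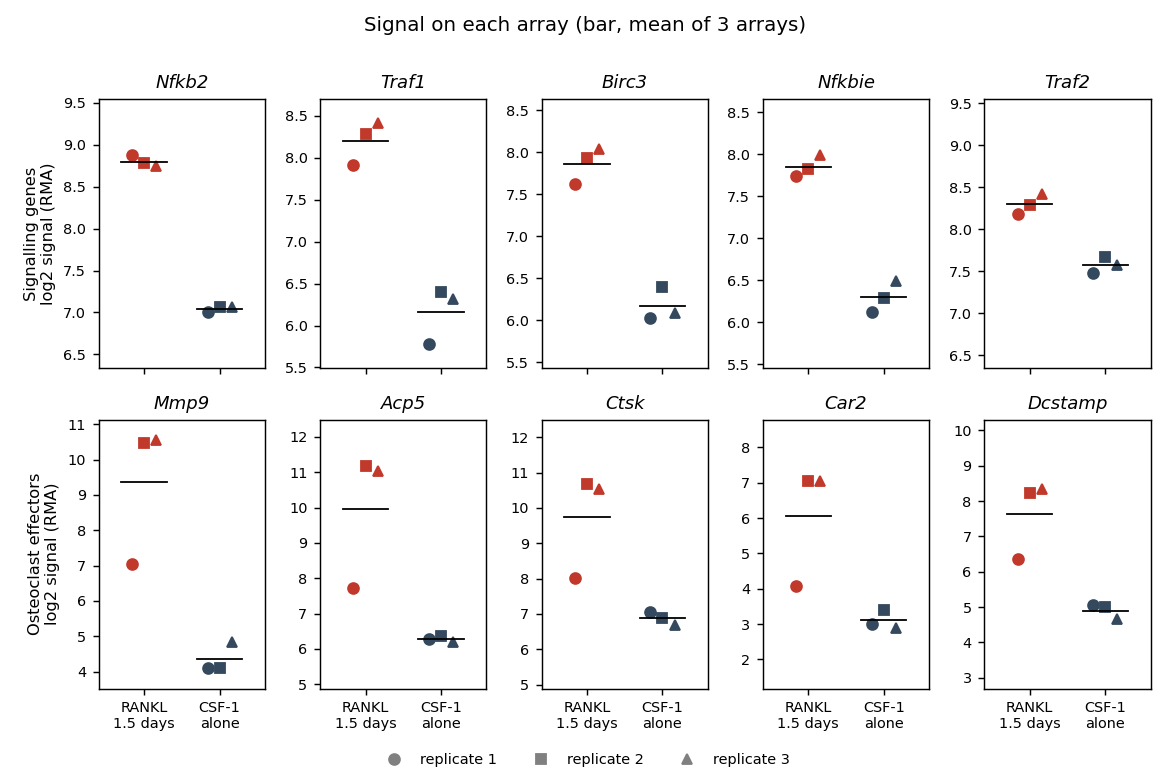
Log2 signal after RMA on each array of RANKL 1.5 days (left in each panel) and CSF-1 alone (right), for 5 signalling genes that rose (top row) and 5 osteoclast effectors that did not pass (bottom row), with the marker shape for the replicate number and a line for the mean of 3 arrays. Axes are centred for each panel, have a wider span in the bottom row and do not start at 0. Nfkb2 is level at 8.74 to 8.87 over the 1.5 days arrays, while Mmp9 reads 7.04 on replicate 1 and 10.47 and 10.55 on replicates 2 and 3.

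Among the called genes outside the RANK and NF-kB lists, the 7 largest rises were those of Slc6a4, Vegfc, Pde2a, Mycl, Slc6a12, Ndrg4 and Btbd11. Slc6a4, the serotonin transporter, read 6.67, 7.89 and 7.76 at 1.5 days, against 4.95, 4.95 and 4.78 in CSF-1 alone. Replicate 1 was the lowest of the 1.5 days arrays and still above all 3 of CSF-1 alone, and the rise was 2.55 (SE 0.33, limma adjusted p = 0.0375). Vegfc, a growth factor for lymphatic vessels, read 6.53, 7.37 and 7.22 against 4.91, 4.70 and 4.24. Its rise was 2.42 (SE 0.33, limma adjusted p = 0.0427), with a spread between arrays in both groups. Pde2a, a phosphodiesterase that degrades cyclic nucleotides, read 7.79, 8.34 and 8.38 against 6.04, 5.86 and 5.81. Here too replicate 1 rose least, and the change was 2.27 (SE 0.26, limma adjusted p = 0.0265). Mycl, a TF of the MYC family, read 5.81, 6.60 and 6.48 against 3.90, 4.03 and 4.26. It rose by 2.23 (SE 0.32, limma adjusted p = 0.0440).

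Slc6a12, a transporter of betaine and GABA, read 10.12, 10.68 and 10.76 at 1.5 days, against 8.93, 8.12 and 8.05 in CSF-1 alone. Replicate 1 was the lowest of the treated arrays and the highest of the controls, so that the pair numbered 1 differed least, and the rise over all arrays was 2.15 (SE 0.33, limma adjusted p = 0.0492). Ndrg4 read 6.94, 8.03 and 7.99 against 5.49, 5.53 and 5.60, a rise of 2.11 (SE 0.30, limma adjusted p = 0.0427). The CSF-1 alone arrays of Ndrg4 were level, and the spread lay in replicate 1 of the 1.5 days group. Btbd11 read 5.11, 5.29 and 5.25 against 3.53, 3.44 and 3.02, and rose by 1.89 (SE 0.17, limma adjusted p = 0.0141). Its CSF-1 alone mean of 3.33 was near the lower quartile of all transcript clusters, which was 3.06 to 3.11 in the 6 arrays. All 7 missed the threshold when RANKL 1.5 days replicate 2 or 3 was dropped (limma adjusted p from 0.121 to 0.261) or when CSF-1 alone replicate 2 or 3 was (0.0689 to 0.216). All but Btbd11 did so without CSF-1 alone replicate 1 too (0.0521 to 0.103). Of the SLC6 transporter list, Slc6a4 and Slc6a12 were the 2 of 18 measured members to rise, and the list median was 0.01. Likewise Pde2a was the 1 of 18 measured phosphodiesterases to rise (median -0.03), and Vegfc the 1 of 21 growth factors and coupling signals (median 0.10).

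The 5 smallest adjusted p-values belonged to Nfkb2, Zmiz2, Rrad, Birc3 and Csf2rb, with rises from 0.57 to 1.75. Zmiz2, a coactivator of nuclear receptors and other TFs, read 9.68, 9.73 and 9.72 at 1.5 days, against 8.45, 8.51 and 8.48 in CSF-1 alone. The SD was 0.03 in both groups, and the rise was 1.23, or 2.35-fold (SE 0.05, limma adjusted p = 8.15e-05). Rrad, a Ras-related protein that inhibits calcium channels, read 7.50, 7.67 and 7.41 against 6.00, 6.25 and 6.12. Its rise was 1.40 (SE 0.11, limma adjusted p = 0.00612), which missed the threshold when CSF-1 alone replicate 3 was dropped (0.0689). Csf2rb, the shared receptor chain for GM-CSF, IL-3 and IL-5, read 9.12, 9.17 and 9.04 against 8.56, 8.55 and 8.52. The rise was small in size, 0.57 (SE 0.05, limma adjusted p = 0.0134), and large against the spread. Csf2rb has a near-identical neighbour in the mouse, Csf2rb2, so the signal may hold both genes. It missed the threshold when CSF-1 alone replicate 2 or 3 was dropped (limma adjusted p of 0.0926 and 0.0844) or RANKL 1.5 days replicate 2 (0.0908).

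The other rises fell into several roles, each passing the limma test with adjusted p-values from 0.0237 to 0.0496, and each lost when at least 1 of the 6 arrays was left out. Among genes of small GTPases and the cytoskeleton, Rnd3 rose by 1.20, the Ral activator Ralgds by 1.15, the Ras inhibitor Rasa4 by 0.81 and Rala itself by 0.52. With them rose the unconventional myosin Myo10 by 0.87, the tropomyosin Tpm1 by 0.63, the kinase Mink1 by 0.62, the Rac-binding Cyria by 0.51, the Cdc42 effector Cdc42ep4 by 0.48 and the focal adhesion protein Pxn by 0.43. Ralgds was high on replicate 1 at 1.5 days, with 8.27, 7.89 and 7.80 against 6.99, 6.82 and 6.69, unlike the transporters above.

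Among receptors and adhesion molecules, the receptor kinase Grk3 rose by 1.77, the G protein-coupled receptor Gpr132 by 1.41, the integrin ligand Icam1 by 0.67, the cell junction protein Nectin1 by 0.66 and the adhesion receptor Adgrl2 by 0.45. The cytidine deaminase Apobec3 rose by 1.03, the guanylate-binding protein Gbp7 by 0.81 and the inflammatory caspase Casp4 by 0.73. Gbp7 belongs to a family of near-identical genes, so its signal may include others. The complement regulator Cd55 rose by 0.48, at a level of 2.38, 2.45 and 2.41 against 1.92, 2.00 and 1.87. It was the 1 called gene whose lower group mean lay below the lower quartile of every array, and no test against background was available for such levels.

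Among nuclear genes, the oxysterol receptor Nr1h3 rose by 0.94, the antiproliferative Btg1 by 0.78, Mllt6 by 0.63, the myeloid TF Spi1 (PU.1) by 0.41 and the Mediator subunit Med11 by 0.40. Enzymes among the rises were the lysosomal amidase Naaa by 0.97, the ubiquitin ligases Smurf1 by 0.66 and Dtx4 by 0.49, Parp8 by 0.66 and the sialyltransferase St3gal1 by 0.43. Fam102a rose by 1.48, the centrosome and Golgi protein Pde4dip by 0.72 and the peroxisome factor Pex16 by 0.56. Pde4dip kept its call in 10 of 12 limma settings that left out no single array, where its limma adjusted p reached 0.665. Its change was as low as 0.48 over the settings. Over all 62 calls, replicate 1 showed the smallest change of the 3 arrays of 1.5 days in 39, 31 of them higher and 8 lower. The same count was not taken over all genes, so it cannot be read as particular to the called genes.

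Fewer of the called genes fell than rose, and by less. This split depended on the setting, from 140 higher and 65 lower with the array set as a term to 199 and 275 on replicates 2 and 3 alone. At an unadjusted limma p under 0.05, 681 genes were higher and 631 lower. Ccnd2, a D-type cyclin that drives entry into the cell cycle, read 7.40, 6.55 and 6.47 at 1.5 days, against 8.29, 8.72 and 8.67 in CSF-1 alone. Replicates 2 and 3 were lower than replicate 1 in the treated group and higher in the controls, and the fall was -1.75 (SE 0.25, limma adjusted p = 0.0427). Rgs1, which ends G protein signals, read 8.15, 7.70 and 7.77 against 8.83, 8.93 and 8.93. Its change was -1.02 (SE 0.12, limma adjusted p = 0.0305), and these were the 2 falls of at least 2-fold. Slco2b1, an organic anion transporter, read 3.49, 3.49 and 3.70 against 4.33, 4.74 and 4.25. This change of -0.88 (SE 0.13, limma adjusted p = 0.0489) ended near the lower quartile of the arrays. Cd36, the scavenger receptor of macrophages, read 10.75, 10.29 and 10.35 against 11.35, 11.34 and 11.32. Level controls and a lesser fall on replicate 1 gave -0.87 (SE 0.12, limma adjusted p = 0.0427).

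Bcl2l1, which protects cells from apoptosis, read 7.52, 7.35 and 7.55 at 1.5 days, against 8.14, 8.24 and 8.48 in CSF-1 alone. The groups did not overlap, and the change was -0.81 (SE 0.10, limma adjusted p = 0.0321). Ccl3, a chemokine for monocytes, read 11.91, 11.64 and 11.82 against 12.52, 12.58 and 12.55, and fell by 0.76 (SE 0.10, limma adjusted p = 0.0368). The Wnt receptor Fzd7 read 6.24, 6.16 and 6.32 against 7.08, 6.95 and 6.96, and changed by -0.76 (SE 0.11, limma adjusted p = 0.0470). The sphingosine phosphate receptor S1pr1, which guides the traffic of OC precursors, read 8.24, 7.85 and 8.13 against 8.70, 8.89 and 8.85, a change of -0.74 (SE 0.10, limma adjusted p = 0.0427). The remaining falls were the haem-degrading enzyme Hmox1 by 0.65, the mTOR complex partner Prr5l by 0.63, the RING protein Rnf150 by 0.61, the small GTPase Rhob by 0.55, the hyaluronidase Hyal1 by 0.50, the inhibin subunit Inha by 0.47 and Slc66a2 by 0.43. Inha read 3.39, 3.25 and 3.40 against 3.87, 3.82 and 3.75, again near the lower quartile of the arrays. Each of the 15 falls lost its call without RANKL 1.5 days replicate 2, where no gene passed as lower, and likewise without replicate 3 and without CSF-1 alone replicate 2 or 3.

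Related genes mostly did not pass. Of 19 measured G1 cyclins and CDK inhibitors, Ccnd2 alone fell (median -0.02), and Ccnd1 stood at -0.49, with 10.85, 10.89 and 10.90 against 10.91, 11.60 and 11.61 (limma adjusted p = 0.914). Of 14 members of the BCL2 family 1 fell and none rose (median 0.02), Bcl2 standing at -0.59 (limma adjusted p = 0.0890). Of 22 chemokines and receptors 1 fell and none rose (median -0.07), with Ccl4 at -1.11 (limma adjusted p = 0.0561), Pf4 at -1.57 (0.333) and Ccr1 at 1.50 (0.597). Of 23 RGS proteins and genes of sphingosine phosphate signalling, Grk3 rose and Rgs1 and S1pr1 fell (median -0.04). Of 22 Frizzled and Notch receptors 1 fell (median -0.03), and of 17 metallothioneins and genes of iron and haem 1 fell (median 0.04), with the iron exporter Slc40a1 at -1.75 (limma adjusted p = 0.0823).

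The TFs that promote OC formation were next considered. Of the AP-1 family 0 of 13 members passed (median 0.08). Fos, needed for OC formation, read 7.88, 8.22 and 8.14 at 1.5 days, against 6.26, 6.26 and 6.55 in CSF-1 alone, without overlap. Its change of 1.72 did not pass (SE 0.31, limma adjusted p = 0.0890), nor did those of Jdp2 at 1.37 (0.187), Fosl2 at 0.95 (0.410) and Atf3 at -0.82 (0.184). Fos passed in 7 of 12 alternatives that left out no single array, and in 0 of the 6 fits without 1 compared array. Of the AP-1 family 3 members passed with the array set as a term, Fos, Jdp2 and Junb, all higher, and 4 higher and 1 lower on replicates 2 and 3 alone. Of 20 genes of NFAT and calcium signalling none passed (median -0.01). Nfatc1 read 8.18, 8.77 and 8.76 against 7.78, 7.88 and 7.98. Its groups did not overlap, and replicate 1 lay nearest to the controls, giving 0.69 (SE 0.15, limma adjusted p = 0.162, or 0.0464 with the array set as a term). Among 21 other pro-osteoclast TFs 2 rose, Mycl and Spi1 (median 0.08, 17 above 0, against 51.7% of all genes above 0). Spi1, which encodes the PU.1 factor of myeloid cells, read 10.22, 10.25 and 10.29 against 9.87, 9.75 and 9.90, a rise of 0.41 (SE 0.06, limma adjusted p = 0.0427). The repressor Prdm1 stood at 1.56 (limma adjusted p = 0.162) and the mitochondrial coactivator Ppargc1b at 0.65 (0.0528), and both passed with the array set as a term (0.0327 and 0.00500). Of 18 anti-osteoclast TFs none passed (median -0.11). Irf8, a brake on OC formation, read 8.33, 8.21 and 8.26 against 8.87, 8.94 and 9.05, a change of -0.69 (SE 0.14, limma adjusted p = 0.133). Irf8 passed in 3 of 12 alternatives that left out no single array, and in 0 of the 6 fits without 1 compared array. Of the 18, 1 passed as lower on replicates 2 and 3 alone, and 0 passed with the array set as a term.

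The next 14 genes were picked from those that the study examined or named, and it examined others as well. They were chosen partly on these samples, so their direction is not independent evidence. Of these, Spi1 rose and 13 did not pass (median 0.40, against 0.01 over all genes). Beside the genes given above, the changes were 3.69 for Acp5 and 2.86 for Ctsk, 1.70 for Oscar (limma adjusted p = 0.410), 0.04 for Clcn7 (0.991), -0.17 for Bcl6 (0.859), -0.13 for Runx1 (0.763), 0.02 for Mitf (0.998), -0.24 for Csf1r (0.458) and 0.39 for Tnfrsf11a. The direction of Mitf turned when the arrays were centred on their medians or RANKL 1.5 days replicate 3 was dropped. Without RANKL 1.5 days replicate 1, 5 of the 14 passed, all higher, as did 5 with the array set as a term. On replicates 2 and 3 alone 6 passed as higher and 2 as lower.

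The 5 largest changes of all genes belonged to effectors of the mature OC (Mmp9, Acp5, Car2, Ctsk and Dcstamp), and none of these 5 passed. Of 24 measured effectors 1 rose, Myo10 (8.15, 8.59 and 8.64 against 7.65, 7.53 and 7.60, limma adjusted p = 0.0489). The list median was 0.67, with 17 members above 0 and 10 whose groups did not overlap upward. Among all 14860 genes, 51.7% were above 0 and 1283 did not overlap upward. On replicate 1 at 1.5 days the list median was 0.225 relative to the controls, and on replicates 2 and 3 it was 0.79 and 0.795. Mmp9, a gelatinase, read 7.04, 10.47 and 10.55 at 1.5 days, against 4.10, 4.09 and 4.84 in CSF-1 alone. All 3 treated arrays were above the controls, but replicate 1 lay far below the others, and the change of 5.01 did not pass (SE 0.88, limma adjusted p = 0.0793). Acp5, the tartrate-resistant acid phosphatase used to stain OCs, read 7.72, 11.17 and 11.03 against 6.28, 6.37 and 6.19. It had the same pattern, with a change of 3.69 (SE 0.84, limma adjusted p = 0.171).

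Mmp9, Acp5, Scin, Ctse and Car2 had the largest SDs of all genes among the 1.5 days arrays, from 1.71 to 2.00, where the median gene had 0.09 in both groups. Scin, an actin-severing protein, read 3.45, 6.69 and 6.83 at 1.5 days, against 2.96, 3.20 and 3.17 in CSF-1 alone. The carbonic anhydrase Car2, which supplies the acid for resorption, read 4.09, 7.05 and 7.05 against 3.01, 3.40 and 2.90. Both had replicate 1 close to the controls, and neither passed (limma adjusted p of 0.426 and 0.214). The collagen-degrading protease Ctsk had the same shape, with 8.01, 10.68 and 10.53 against 7.05, 6.89 and 6.70 (2.86, limma adjusted p = 0.185). Ctse, an aspartic protease, differed, with 6.80, 3.78 and 3.77 against 6.95, 4.70 and 4.40. Replicate 1 was high in both groups, and replicates 2 and 3 were lower at 1.5 days than in CSF-1 alone. Kit, the stem cell factor receptor, chosen after its values were seen, read 7.74, 5.30 and 5.32 against 8.36, 5.92 and 5.92, with replicate 1 again high in both groups.

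Without RANKL 1.5 days replicate 1, 8 effectors passed, all higher, among them Mmp9 (6.17, limma adjusted p = 0.00161), Acp5 (4.82, 0.00157), Ctsk (3.73, 0.00624), Car2 (3.95, 0.00518) and Dcstamp, which is needed for cell fusion (3.38, 0.0278). On replicates 2 and 3 of all groups alone 12 effectors passed, all higher, and with the array set as a term 6 did. Replicate 1 showed the smallest change of the 1.5 days arrays in 17 of the 24 effectors. Setting it apart therefore enlarges or sharpens their differences in advance, and these settings were chosen with earlier results known. Passes under them, here and in the other lists, are not independent support. What sets replicate 1 apart was not tested. The labels name no batch. The effector Atp6v0d2, a subunit of the proton pump, was split in the controls, with 8.81, 9.24 and 9.28 at 1.5 days against 9.13, 6.98 and 6.98.

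Macrophage and monocyte genes were mostly below 0. Of 23 measured members 20 were below 0, where 51.7% of all genes were above 0. Cd36 fell, Csf2rb rose and 21 did not pass (median -0.23). Of those that did not pass, the mannose receptor Mrc1 stood at -1.17 (limma adjusted p = 0.303), the Fc receptor Fcgr1 at -1.06 (0.168), the chemokine receptor Ccr2 at -1.03 (0.333) and the scavenger receptor Stab1 at -0.95 (0.0678). Stab1 read 10.37, 9.91 and 9.82 at 1.5 days, against 10.73, 11.14 and 11.07 in CSF-1 alone, with replicate 1 showing the smallest difference. The mean signal of the list was 8.82 to 9.18 over the 1.5 days arrays and 9.22 to 9.36 over those of CSF-1 alone. On replicates 2 and 3 alone, 10 members passed as lower and 1 as higher. Of 16 ITAM receptors and kinases, the costimulatory arm of OC signalling, none passed (median -0.19, 11 below 0).

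**Figure D3:**
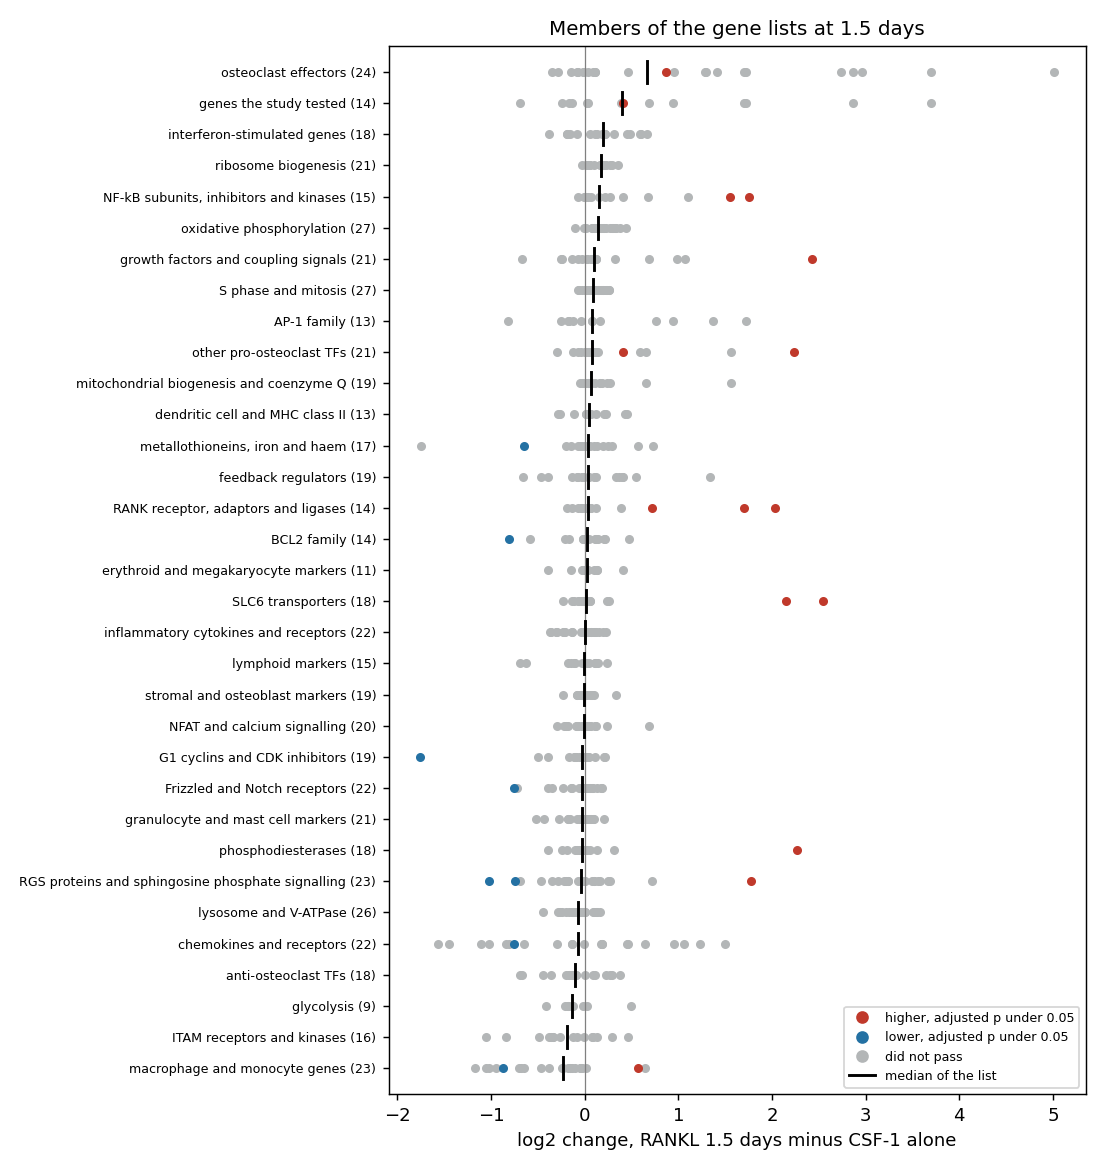
Log2 change at 1.5 days (RANKL 1.5 days minus CSF-1 alone) of each measured member of 33 gene lists, ordered by the list median (black bar), with the number of members in brackets. Red and blue points passed the test, and grey points did not. Effectors spread up to 5.01 with 1 red point, whereas the red points of the receptor and NF-kB lists stand apart from medians of 0.03 and 0.15.

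No gene of the growth and metabolism lists passed. The oxidative phosphorylation list had 25 of 27 members above 0 (median 0.14) and ribosome biogenesis 20 of 21 (median 0.18), where 51.7% of all genes were above 0. Largest in these lists were the complex III subunit Uqcrfs1 at 0.44 (limma adjusted p = 0.187) and Nop16 at 0.36 (0.759). On replicate 1 of 1.5 days the ribosome biogenesis median was 0.01 relative to the controls, and on replicates 2 and 3 it was 0.21 and 0.24. S phase and mitosis genes had 23 of 27 above 0 (median 0.09), and mitochondrial biogenesis and coenzyme Q genes 16 of 19 (median 0.07), with Coq8a at 1.57 (limma adjusted p = 0.0903, or 0.0210 with the array set as a term). The 9 glycolysis genes had a median of -0.14 and the 26 of lysosome and V-ATPase -0.07. None of 18 interferon-stimulated genes passed (median 0.20), and their median on CSF-1 alone replicate 1 was -0.585 from the group's mean, against 0.297 and 0.255 on replicates 2 and 3. The list median turned to -0.08 without CSF-1 alone replicate 1, and it was 0.35 without CSF-1 alone replicate 2 and -0.0075 on replicates 2 and 3 of all groups alone. None of 22 inflammatory cytokines and receptors (median 0) or 19 feedback regulators (median 0.03) passed, Socs2 standing at 1.34 (limma adjusted p = 0.431) and the phosphatase Ptpn6 at 0.39 (0.0506).

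To see how early genes stood later, the 3 days arrays were set beside them. Both comparisons share the CSF-1 alone arrays, and the difference of 3 days minus 1.5 days shares the 1.5 days arrays, so the values are given side by side without an overlap test. Of the 62 genes, 38 also passed at 3 days against CSF-1 alone, where 59 genes passed. Between 3 days and 1.5 days no gene passed (0% of 14860, smallest limma adjusted p 0.470, 771 at an unadjusted p under 0.05, 16 of them among the 62). All 47 higher genes remained above 0 at 3 days, and 14 of 15 lower genes below 0. The difference of 3 days minus 1.5 days was above 0 in 17 of the 47 and in 11 of the 15. The 62 genes were chosen on the 1.5 days arrays. A gene high there by chance leans downward later, and a low one upward, so these counts alone cannot show a return.

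Genes that were lower at 3 days than at 1.5 days included the leading transporter. Slc6a4 averaged 4.89 in MPs without RANKL, 7.44 after 1.5 days and 6.65 after 3 days, a difference of -0.79 between the time points (SE 0.33, n = 3 arrays each). Pde2a averaged 5.90, 8.17 and 7.54 in that order, a difference of -0.63 (SE 0.26), and Mycl 4.06, 6.30 and 5.76, a difference of -0.54 (SE 0.32). On replicate 1 at 3 days these 3 genes were also low, at 6.18 against 6.74 and 7.02 for Slc6a4, for example. Med11 averaged 8.23, 8.63 and 8.32, and so was near its CSF-1 alone level again at 3 days. The largest differences upward were 0.60 for Hyal1, which averaged 8.06, 7.56 and 8.16, and 0.37 each for Prr5l and Rgs1, all of which were lower at 1.5 days. Cd55 and Gbp7 were each 0.34 higher at 3 days than at 1.5 days, and the difference of Hmox1 was -0.29. None of these differences passed the limma test over all genes.

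**Figure D4:**
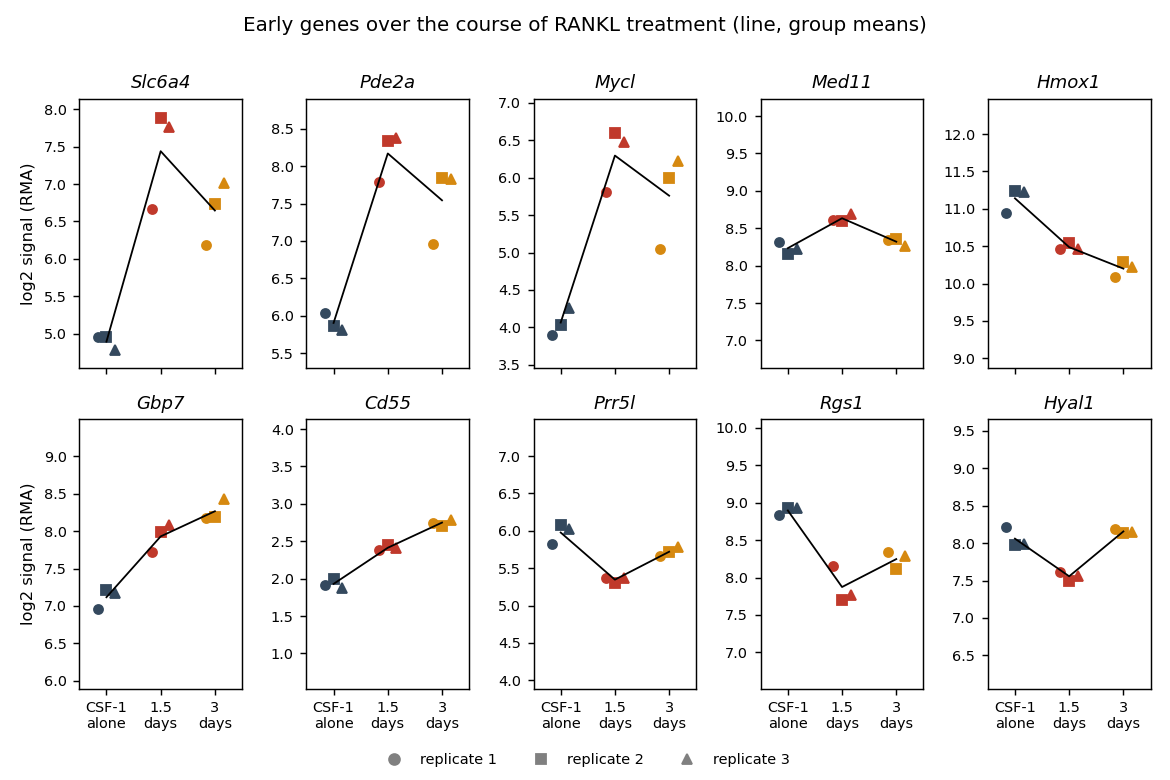
Log2 signal on each array in CSF-1 alone, after 1.5 days and after 3 days of RANKL, for the 5 called genes with the lowest and the 5 with the highest difference of 3 days minus 1.5 days, with a line through the group means and the marker shape for the replicate number. Axes have the same span in all panels, are centred for each panel and do not start at 0. Slc6a4 averages 4.89, 7.44 and 6.65, and Hyal1 8.06, 7.56 and 8.16.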

How the data were processed

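Each sample's RNA was read on 1 mouse exon array (Affymetrix), with 3 arrays in each group. The authors ran RMA in Affymetrix Expression Console, a background correction followed by quantile normalization and median polish over probes, and the deposited values are log2 signals with 2 decimals. Of the tools only the names are known, with versions not given in the sources used here. No detection calls were used. The labels give a higher CSF-1 dose for the expansion than the study's methods.

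Of 23332 clusters, the platform annotation tied 14996 to 1 symbol and 1019 to several, and 7317 were unlisted. Symbols were updated by gene ID with RefSeq (14941 matched), and 135 symbols with several clusters kept the one with the highest mean signal. The log2 values of all 9 arrays were fitted with a mean per group in limma 3.58.1 (R 4.3.3; 6 residual and 1.83 prior degrees of freedom), two-sided, with Benjamini-Hochberg adjustment over 14860 genes at 0.05. The fit was tested on simulated data, with scatter drawn independently for each array. That test therefore did not cover the likeness of the arrays numbered 1. With 3 arrays a side, the smallest two-sided p of an exact test is 0.1. The number of arrays limits the precision.

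Genes were named by rule. Every called gene may be named, with values per array for the 8 largest rises, the 8 largest falls and the 5 smallest adjusted p-values. Also named were up to 4 members of each list with the largest changes, the genes picked from the study and the 5 genes with the largest SD at 1.5 days. The 5 highest and 5 lowest differences between the time points were named too, and other members as values. Atp6v0d2, Csf1r, Adgre1, Traf6 and Kit were given outside this rule. The members, the 33 gene lists (textbook knowledge, except the study's genes) and the alternatives were chosen with earlier results of these data known. Alternatives were the replicate block, a term for the array set, replicates 2 and 3 alone, other scaling, filters on dim genes, other variance models, array weights, other cluster choices, the 6 arrays alone, each array left out and the methods' t-test. Replicate numbers were checked as pairs by correlating the arrays' deviations from their group means. Between 1.5 days and 3 days same-numbered arrays correlated at 0.37, 0.21 and 0.15, all over 0.1, so that for this difference the block was also read, with 0 genes passing in either fit. Promoters came from RefSeq (GRCm38.p6).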

Additional observations from a re-analysis of the deposited data

How the results depend on the processing

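Counts of calls moved with the setting, and the cause was not tested. Against 62 calls (47 higher, 15 lower), the array set as a term gave 205 (140 higher, 65 lower), with all 62 genes among them, replicates 2 and 3 alone gave 474 (199 and 275), with 50 shared, and array weights gave 607 (302 and 305), with all 62 shared. Weights were 0.83 and 0.84 for replicate 1 of 1.5 days and CSF-1 alone, and 1.50 to 2.17 for their other arrays. Leaving out the 4953 dimmest genes gave 95 (71 and 24) and leaving out 7430 gave 103 (74 and 29). All transcript clusters gave 15 (13 and 2), the 6 arrays alone 26 (22 and 4), and the methods' t-test after Benjamini-Hochberg adjustment 6 (3 and 3), with 4 shared and 1332 genes at an unadjusted p under 0.05. The other settings stayed within 1.5 times, at 57 to 71 calls, with the split at 42 and 19 after centring the arrays. With 1 array left out there were 2 to 139 calls, 2 to 86 higher and 0 to 53 lower. A lone pair was then assumed to vary like the other groups. Between 3 days and 1.5 days 0 genes passed under each setting that gave a value.

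In the fit with the replicate block 71 genes passed (56 higher, 15 lower), 38 of them among the 62, and between the time points 0 of the called genes passed. For the comparison with CSF-1 alone the numbers were not taken as pairs. Deviations of same-numbered arrays of 1.5 days and CSF-1 alone correlated at 0.27, 0.05 and 0.13, not all over 0.1. Array 1 of 1.5 days was most like array 1 of CSF-1 alone, but array 2 was more like array 3 (0.14). Between the time points, array 3 of 1.5 days was likewise more like array 2 of 3 days (0.18) than array 3 (0.15). Whether the numbers mark pairs is not labelled, and calls not shared with the block fit depend on this choice. Except in the t-test, 7 of the 62 genes kept their call in all 12 settings that left out no single array, Nfkb2, Zmiz2, Rrad, Birc3, Csf2rb, Apobec3 and Nfkbie. Btbd11 did so in 11, and was among the genes left out as dim in the other. Directions were compared for the called genes, those picked from the study and the 5 with the largest SDs. The direction turned for 2 that did not pass, Ctse and Mitf. Ctse stood at 0.23 without CSF-1 alone replicate 1, with leave-one-out values down to -1.58. Mitf stood at -0.0067 with arrays centred, and at -0.027 to 0.088 with 1 array left out.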
